A study of Populus alba x Populus glandulosa with 9 samples.

Results

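The module described here holds 13 genes of 84K poplar whose transcript level was lower in the middle than in the top of the stem, and lower again in the bottom than in the middle. They were chosen by their measured FPKM at all 3 positions, out of 85755 gene identifiers. The lowest top library had to be at least 1.5 times the highest middle library, and the lowest middle library at least 1.5 times the highest bottom library. The top mean had to reach 5 FPKM (fragments counted per length of gene and per library total, a level scaled for both), and every middle library had to reach 1 FPKM. The falls at both steps are therefore the way the genes were chosen, and they are given as a description.

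84K poplar is the offspring of a cross between Populus alba and Populus glandulosa. All plants were wild type, propagated from cuttings on rooting medium and then grown under natural conditions, 6 months old and about 200 cm tall. RNA came from stem pieces: the top pieces held internodes 2 to 3, the middle pieces 9 to 10 and the bottom pieces 14 to 15, with 3 libraries for each position. The labels do not say whether the libraries of a position came from separate plants, so p-values reflect library-to-library spread, some of which may be technical.

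In a tree stem the upper internodes are still elongating, and their tissues come from the shoot tip by primary growth. Further down, a ring of dividing cells, the vascular cambium, adds wood to its inside and phloem to its outside, and cells of the wood deposit thick secondary walls and then die. Genes whose transcripts decline with distance from the tip can thus belong to tissues that take up less of an older stem, or to processes that slow as the stem ages. In RNA from whole stem pieces, fewer cells of a type and less RNA per cell cannot be told apart. The deposited tables give identifiers with no gene names, so no role is given for any of the 13 genes, and the labelled tissue was not checked against marker genes.

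Libraries held 41434042 to 75217046 counts. Middle library 2 lay towards the top libraries in most of the genes described here, as set out after the levels of the single genes. Read pairs of any 2 libraries of a position differed beyond counting noise, where the chi-square divided by its degrees of freedom was 22.7 to 55.9, and all 9 were kept as separate samples.

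Falls that separate all 3 positions were rare. The level criteria alone were met by 28626 genes. Of these, 1403 met the criterion for the first step, from top to middle, and 743 met that for the second step, from middle to bottom. Both were met by 13 genes, or 0.0454% of the genes with sufficient level. Among the genes with sufficient level, 5500 had position means that declined from top to middle and from middle to bottom by any amount. With the criteria mirrored, so that the bottom was highest, 1 gene rose at both steps.

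**Figure D1:**
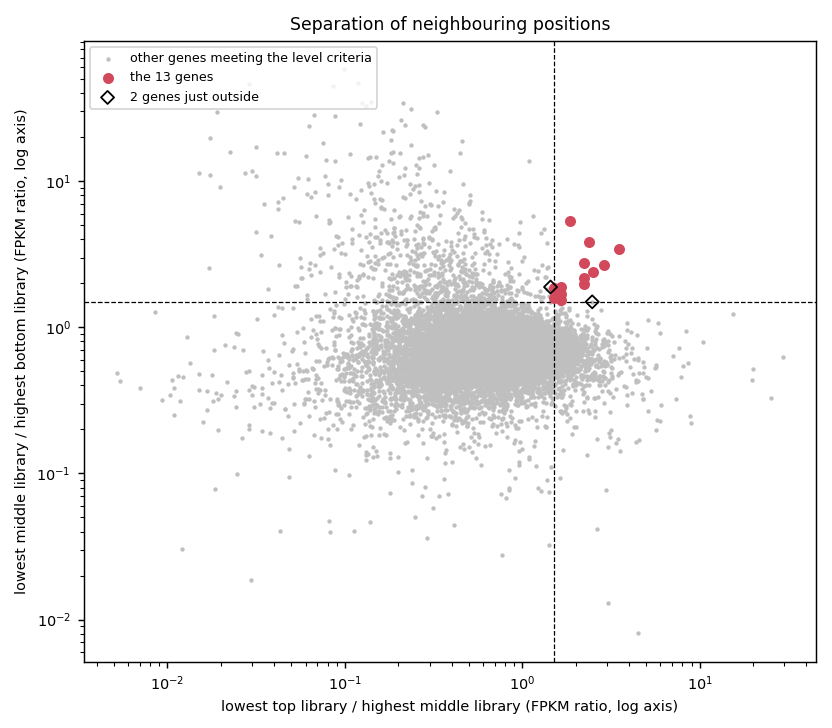
Ratio of the lowest top to the highest middle library against the ratio of the lowest middle to the highest bottom library, both as FPKM ratios on log axes, for genes that met the level criteria. The 13 genes (red) lie in the upper right, beyond both dashed lines at 1.5, and the 2 nearest genes outside (diamonds) lie at 1.49 and 1.44 on their smaller ratio.

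Several of the 13 genes stood close to the 1.5-fold limit. The smaller of the 2 separations was under 2-fold in 7 genes and had a median of 1.98. Just inside were Pop_G08G022041, with 1.51 at the first step and 1.59 at the second, and Pop_G02G080423, with 1.51 and 1.86. Just outside, among genes that met the level criteria, was Pop_A02G012113, with 2.48 and 1.49. Next came Pop_G01G079628, with 1.44 and 1.88. A further 15 genes met all criteria but the minimum in the middle libraries. This count includes genes with no signal in a top library. The 26 genes given later, with no minimum in the middle libraries, leave such genes out.

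In the upper stem the 13 genes ranged from 8.55 to 180.2 FPKM in position mean, with a median of 24.8. In the middle the means ran from 1.76 to 62.4, with a median of 8.69, and in the bottom from 0.196 to 18.6, with a median of 1.03. Ranked among all genes detected at a position, the median gene of the module stood at the 89.2nd percentile in the upper stem, the 66.4th mid-stem and the 25.0th at the base. The middle level was 11.5% to 51.3% of the top level, and the bottom level 0.946% to 22.5%.

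**Figure D2:**
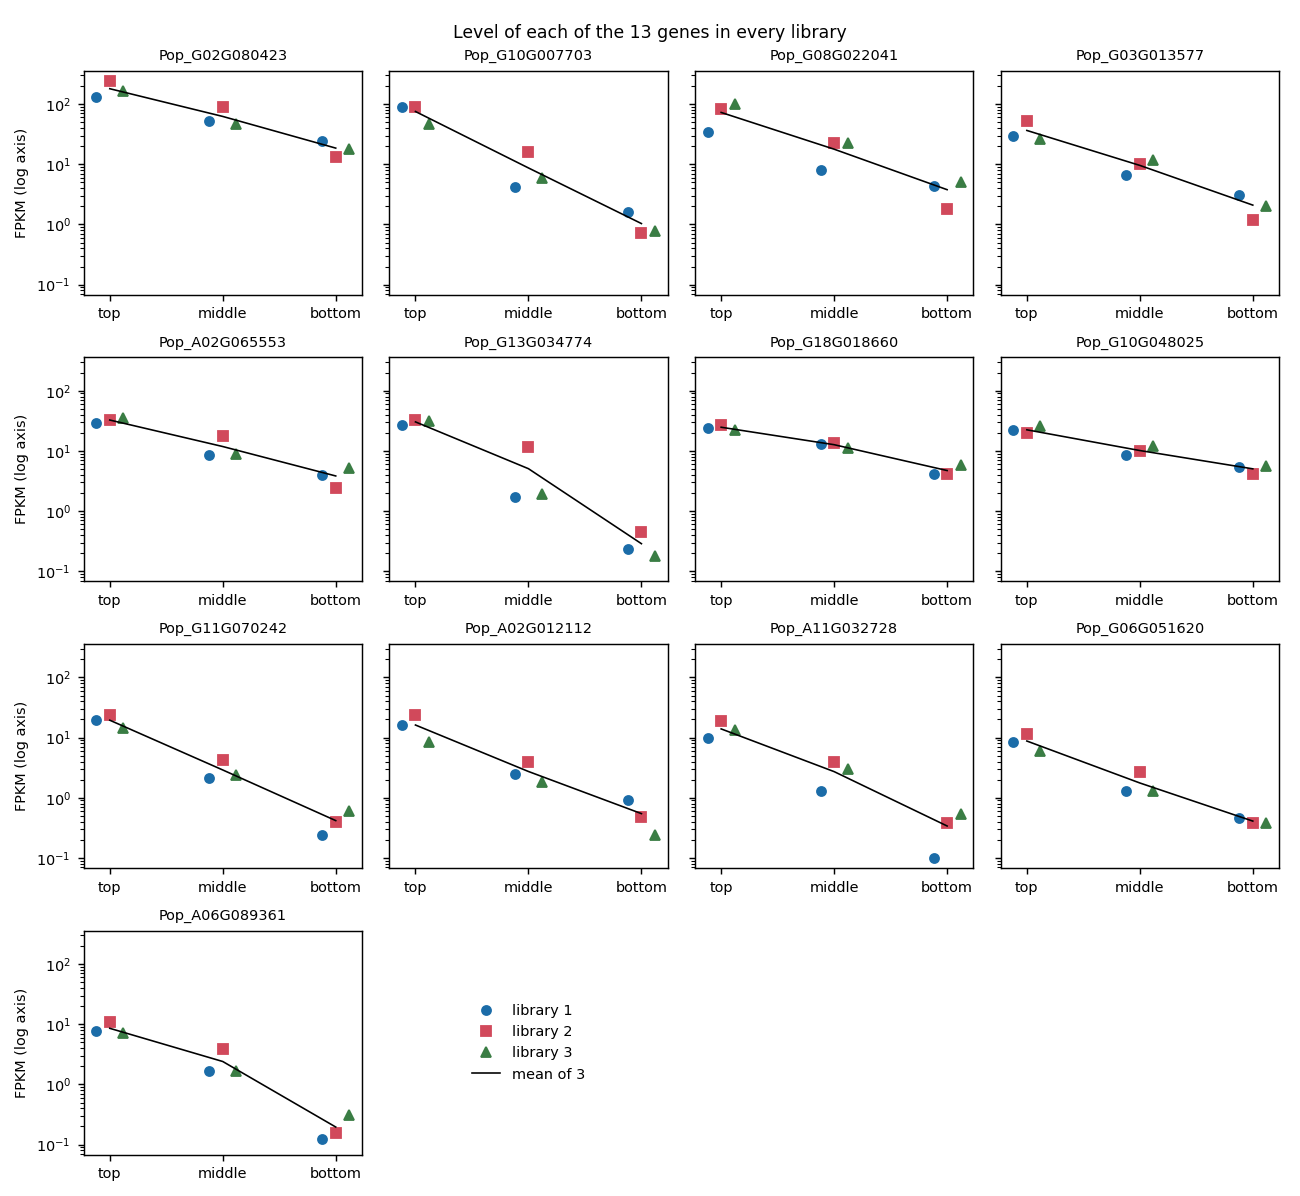
FPKM (log axis) of each of the 13 genes in the 3 libraries of top, middle and bottom, ordered by top mean, with the line joining position means of 3 libraries. Pop_G02G080423 is highest at every position, and Pop_G13G034774 and Pop_A06G089361 bend downwards below the middle.

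The most abundant member was Pop_G02G080423. Its level was 133, 244 and 164 FPKM in top libraries 1, 2 and 3, 52.9, 88.2 and 46.0 in the middle and 24.7, 13.4 and 17.6 in the bottom. Top and middle approached each other between top library 1 and middle library 2, and the bottom libraries stayed apart from both. It supplied 29.5% to 36.4% of the summed FPKM of the 13 genes in the top libraries and 39.7% to 49.9% in the bottom libraries, since the other members taken as a sum fell further. Even in the bottom, at 18.6 ± 5.68 FPKM (SD, n = 3), it ranked at the 84.7th percentile of detected genes.

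Pop_G10G007703 was the next most abundant in the top and among the steepest to fall. It stood at 89.3, 90.8 and 45.9 FPKM at the top, 4.26, 15.9 and 5.94 mid-stem and 1.59, 0.723 and 0.79 at the bottom. Middle library 2 was well above the other middle libraries, and the bottom values were near 1. The mean fell 8.67-fold at the first step and 8.40-fold at the second, 72.8-fold in all.

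Pop_G08G022041 differed most between libraries of the top. Its top libraries held 34.2, 81.8 and 102 FPKM, its middle libraries 8.15, 22.7 and 22.6, and its bottom libraries 4.40, 1.81 and 5.14. Library 1 was the lowest in top and middle but not in the bottom. The coefficient of variation came to 47.9%, 47.0% and 46.2% from top to bottom, against medians over the 13 genes of 31.4%, 43.6% and 45.8%.

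Pop_G03G013577 was at 29.8, 53.2 and 26.4 FPKM at the top, 6.68, 10.2 and 11.8 mid-stem and 3.09, 1.18 and 2.02 at the bottom. Both separations exceeded 2-fold, and middle library 3 rather than 2 was highest. For Pop_A02G065553 the top libraries agreed closely, at 29.4, 32.9 and 35.6 FPKM, whereas the middle held 8.70, 17.8 and 9.01 and the bottom 3.96, 2.44 and 5.11. Its spread lay in the middle, where library 2 had about the level midway between the other middle libraries and the top.

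The shallowest declines were those of Pop_G18G018660 and Pop_G10G048025, and their highest coefficients of variation at any position were the lowest of the module. Pop_G18G018660 had 24.5, 27.2 and 22.6 FPKM at the top, 13.2, 13.6 and 11.2 mid-stem and 4.09, 4.15 and 5.92 at the bottom. Pop_G10G048025 had 21.9, 19.5 and 25.9, then 8.52, 10.1 and 11.8, then 5.51, 4.06 and 5.55 FPKM. From top to bottom their means fell 5.24-fold and 4.45-fold, the smallest falls among the 13, and the coefficients of variation ran from 9.45% to 22.0% and from 14.2% to 16.9% over the positions.

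The remaining 6 genes had a bottom mean under 1 FPKM. Pop_G13G034774 had the largest overall fall, 106-fold in position means. It held 27.4, 32.2 and 31.5 FPKM at the top, 1.74, 11.5 and 1.94 mid-stem and 0.231, 0.455 and 0.176 at the bottom. Its top libraries were nearly equal, while middle library 2 lay nearer to the top libraries than to the other middle libraries on a log scale. The coefficient of variation of 110% in the middle was the highest at any position among the 13 genes. Its bottom mean rests on 24 read pairs in 3 libraries.

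Pop_G11G070242 showed the widest separation of neighbouring positions, since its smaller separation was 3.46-fold. It held 19.7, 24.0 and 14.6 FPKM at the top, 2.10, 4.17 and 2.41 mid-stem and 0.241, 0.402 and 0.608 at the bottom. The mean fell 6.71-fold and then 6.94-fold, nearly the same factor at each step. Pop_A11G032728 ran alongside at 9.86, 18.6 and 13.4 FPKM, then 1.27, 3.91 and 2.97, then 0.10, 0.384 and 0.534. Library 1 was the lowest at every position.

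Pop_A06G089361 and Pop_G06G051620 were the least abundant in the top. Pop_A06G089361 had 7.67, 10.8 and 7.20 FPKM at the top, 1.65, 3.86 and 1.70 mid-stem and 0.126, 0.153 and 0.308 at the bottom. Pop_G06G051620 had 8.54, 11.7 and 6.06, then 1.29, 2.72 and 1.27, then 0.461, 0.382 and 0.385 FPKM. They began at like levels, and in the bottom every library of the first lay below every library of the second. Pop_A02G012112 held 16.4, 23.5 and 8.55 FPKM at the top, 2.51, 3.86 and 1.82 mid-stem and 0.917, 0.477 and 0.24 at the bottom, with library 3 lowest at each position.

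At such levels the bottom values rest on few reads. In 4 genes at least 1 bottom library held fewer than 10 read pairs. Pop_A02G012112 had 13 read pairs in the 3 bottom libraries together and 56 in the middle, and its pooled rate was 5.13-fold lower in the bottom (95% exact binomial interval 2.77 to 10.2). Pop_A06G089361 had 15 against 151 read pairs, a pooled fall of 11.98-fold (7.04 to 21.9). Pop_G13G034774 had 24 against 341, a pooled fall of 16.9-fold (11.2 to 26.8). These intervals cover counting error at most. They pool the 3 libraries of a position and leave out the spread between them, such as 47, 254 and 40 read pairs in the middle of Pop_G13G034774. Read pairs amplified by PCR are not independent molecules, so even counting error may be understated.

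Within positions the libraries did not scatter evenly. Middle library 2 was the highest of the 3 middle libraries in 11 of the 13 genes, while over the 28626 genes that met the level criteria it was highest in 24.0%. Among the 1390 genes that met the first step but not the second, it was highest in 14.0%. Top library 2 was the highest top library in 10 of the 13 genes, against 29.3% of the genes with sufficient level and 38.3% of those 1390 genes. Bottom library 3 was the highest bottom library in 7 of the 13, against 35.1% and 39.1%. The summed FPKM of the module was 452, 670 and 503 in the top libraries, 113, 209 and 131 in the middle and 49.4, 30.02 and 44.4 in the bottom. In these sums library 2 was thus highest in top and middle and lowest in the bottom. Pop_G02G080423 alone held 29.5% to 49.9% of the sum of a library. The rule set no order of libraries within a position, but the order is read from the same values that chose the genes.

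On a log2 scale, middle library 2 lay at a median of 64.5% of the way from the bottom mean to the top mean over the 13 genes, with a range of 47.1% to 79.7%. Middle library 1 lay at 39.7% (29.2% to 62.7%) and middle library 3 at 46.9% (37.5% to 63.8%). Leaving out a library can only loosen the separations, and a larger number of genes says nothing by itself. On the other 8 libraries the same rule gave 68 genes without middle library 2. It gave 30 genes without top library 1, 27 and 26 without middle libraries 1 and 3, 22 without bottom library 1 or 3, and 15 or 16 without any 1 of the others. Middle library 2 also set the sizes of some single falls, which are given with and without it beside the tests of each step.

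**Figure D3:**
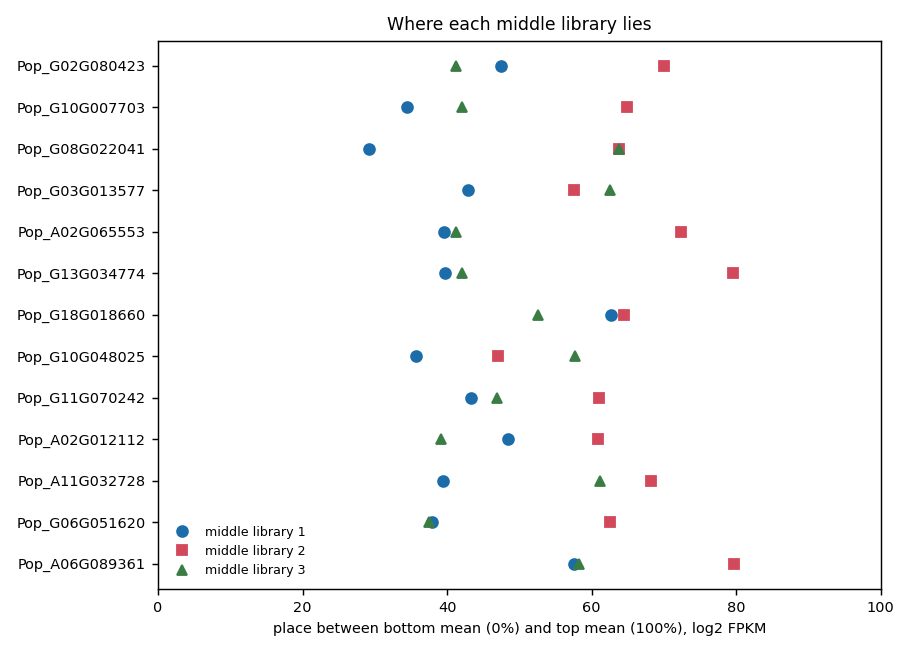
Place of middle libraries 1, 2 and 3 as percent of the way from the bottom mean to the top mean of each gene, on the log2 FPKM scale. Middle library 2 (red squares) is the nearest to the top in 11 of 13 genes and reaches 79.7%.

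The falls were also estimated on the deposited counts with edgeR's quasi-likelihood test, in 1 fit of all 9 libraries over 52436 genes, with Benjamini-Hochberg adjustment over all of them. All 13 genes passed the filter on low counts. From top to middle the fitted log2 fold change had a median of -2.04 over the 13 genes and ranged from -3.13 to -0.99, where the median over all genes tested was 0.01. All 13 were called lower at an adjusted p under 0.05, beside 10.4% of all genes tested. The adjusted p ran from 0.00293 to 0.0316. Without top library 2, middle library 1 or middle library 3, edgeR called 8, 7 and 6 of them, beside 6.82%, 6.93% and 6.0% of all genes. Since the rule used this contrast, nothing is read from these counts.

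From middle to bottom the median was -2.30, with a range of -4.18 to -1.06, against 0.04 over all genes tested. At this step 4 of the 13 genes were called lower, beside 0.795% of all genes tested: Pop_G18G018660 (adjusted p = 0.0128), Pop_A06G089361 (0.0172), Pop_G11G070242 (0.0188) and Pop_G10G048025 (0.0447), all in edgeR. The other 9 had edgeR adjusted p-values of 0.0511 to 0.158, and each of the 13 had an unadjusted p under 0.05. The rule used this contrast too, so nothing is read from how many of the 13 passed, adjusted or not. The share of all genes under the unadjusted limit was not counted. The fall of Pop_G13G034774 was the largest fitted at this step, at -4.18 on the log2 scale (standard error 0.81), and was not called (edgeR adjusted p = 0.0626). Its size rested on middle library 2: without it the fall was -2.68, smaller than the -3.10 of Pop_A06G089361 in the same fit, and it was called (edgeR adjusted p = 0.0144). It was also called without middle library 1 (edgeR adjusted p = 0.0316) and without middle library 3 (0.0432). Pop_G18G018660, which fell by 1.48 on the log2 scale with a standard error of 0.17, was called. DESeq2 called 13 of the 13 at this step, where it called 3.16% of all genes lower. Without bottom library 1, 2 or 3 edgeR called 0 of them, with 13 of 13 at an unadjusted p under 0.05 in each of these fits. Over all genes these fits called 15, 1 and 0 lower, so that nearly all calls at this step were lost and not those of the module in particular. With middle library 1 left out edgeR called 9 of the 13, beside 1.05% of all genes.

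From top to bottom the fitted log2 fold change ran from -6.77 to -2.23 with a median of -4.49, against 0.00 over all genes tested. All 13 were called, beside 15.1% of all genes tested, with edgeR adjusted p-values of 0.000378 to 0.00215. The 3 contrasts share libraries, so they are 3 views of 1 set of values. In the F test over the positions 13 of 13 were called, beside 22.1% of all genes tested. The rule used these values as well, so nothing is read from these counts.

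**Figure D4:**
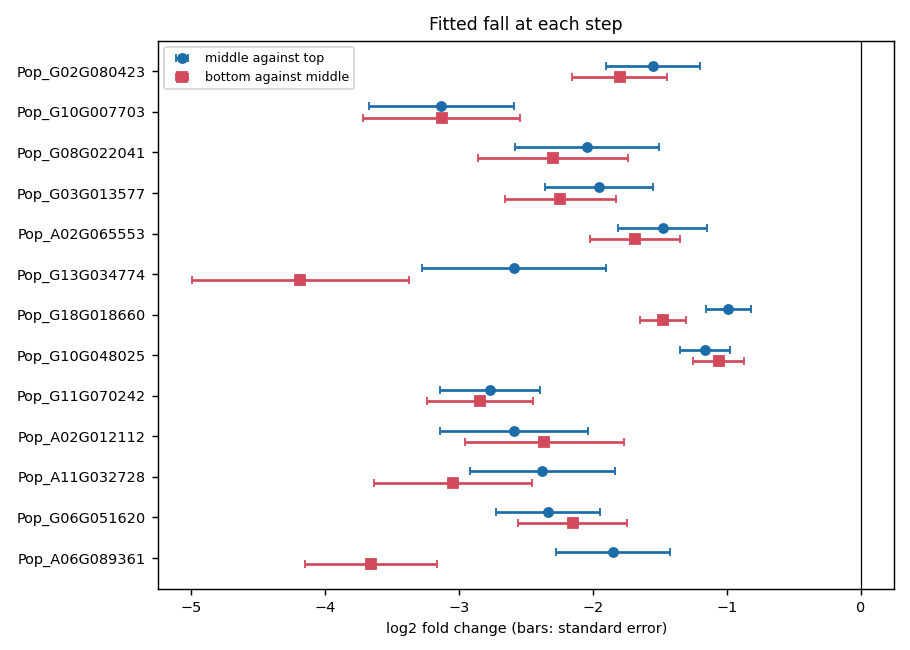
Fitted log2 fold change (edgeR) of each gene from top to middle (blue circles) and from middle to bottom (red squares), with bars of 1 standard error. The bars of the steps overlap in most genes, and the second step extends furthest in Pop_G13G034774, at -4.18 with all libraries and -2.68 without middle library 2.

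In most members the position means fell by like factors at both steps. The ratio of position means was larger at the second step in 9 genes and at the first in 4. This balance changed with the libraries and the scale. The fitted fall was larger at the second step in 3 genes without middle library 2 and in 13 without middle library 1. It was larger there in 12 genes without top library 2, and in 7 without bottom library 2. In limma on log2(FPKM + 1) this held for 2 genes, and in each of the other alternatives for 8 to 10. The difference between the steps was largest in Pop_A06G089361, which fell 3.56-fold and then 12.3-fold, and in Pop_G13G034774, which fell 5.99-fold and then 17.6-fold. At the other end, Pop_A02G012112 fell 5.92-fold and then 5.01-fold, and Pop_G06G051620 fell 4.98-fold and then 4.30-fold. The fitted second step minus the first was -1.81 on the log2 scale in Pop_A06G089361, with a standard error of 0.74 (edgeR adjusted p = 0.231). Without middle library 2 this difference shrank to -0.72 (edgeR adjusted p = 0.693). In Pop_G13G034774 the second minus the first was -1.59 with all libraries, with a standard error of 1.19 (edgeR adjusted p = 0.517). Without middle library 2 the sign turned in Pop_G13G034774, where the first step went from -2.59 to -4.08 and the second minus the first to 1.40 (edgeR adjusted p = 0.338). In Pop_G10G007703 the second minus the first went from 0.001 to 1.59 (edgeR adjusted p = 0.4). None of the 13 genes was called for a difference between the steps, beside 1.35% of all genes in edgeR and 9.08% in DESeq2, and 1 had an unadjusted p under 0.05 in each. This does not show equal steps, since the standard errors of Pop_A06G089361 and Pop_G13G034774 allow differences of over 1 on the log2 scale. They were also wide in Pop_A02G012112 (1.02), Pop_A11G032728 (0.92) and Pop_G08G022041 (0.91), whose steps are no better known. In the other genes they were smaller, such as 0.69 in Pop_G06G051620 and 0.28 in Pop_G18G018660.

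Of all genes tested, 12 (0.0229%) were called lower at both steps by edgeR. They share 4 genes with the module, 30.8% of its members and 33.3% of the 12. The other 8 were missed by the rule because their libraries came closer than 1.5-fold at 1 of the steps. In 7 of them this was the first step, with a separation of 1.16 to 1.38. In Pop_G19G084122 it was the second step, with 1.36. The most abundant of the 8 was Pop_A02G023960, at 138, 282 and 195 FPKM at the top, 58.2, 103 and 74.99 mid-stem and 26.3, 15.4 and 18.9 at the bottom.

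Identifiers of this annotation carry a class letter (A, G or Un) and, for A and G, a number. The files do not say what these mean, and they are used here as labels. Of the 13 genes, 9 were of class G and 4 of class A, and 0 were of class Un. Over the genes that met the level criteria, class G made up 48.6% and class A 49.9%. The 13 genes were spread over 8 of the 19 numbers. The gene length implied by counts and FPKM ran from 292 to 2720 bases with a median of 993, against 1458 over the genes with sufficient level. With 13 genes these shares and medians are a description.

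Among the members were 2 pairs, each with 1 gene of class A and 1 of class G under the same number and with the same implied length. Pop_A11G032728 and Pop_G11G070242 both had 1900 bases. Pop_A06G089361 and Pop_G06G051620 both had 910. The other class held 529 to 2326 genes with a known length under the number of a member, of which 1 to 5 had the member's length within 1 base. For Pop_A11G032728 and for Pop_G11G070242 the partner was the only gene of that length. Outside the 2 pairs, 28 other genes matched a member's length in this way, and 0 of them met both step criteria. A gene outside the module could meet both only by missing the level criteria. The 0 thus comes largely from the rule and sets no contrast to the pairs. This search for pairs was made after the values had been seen.

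The nearest profiles were sought on the same FPKM values that chose the members, so a fellow member under the same number is favoured by that choice and the search is no support for the pairs. For each member the gene of the other class under the same number was sought whose log2(FPKM + 0.1) values over the 9 libraries were nearest, measured as the root mean square difference. The nearest gene was itself a member for 4 of the 13, and these were the 4 genes of the 2 pairs, at 0.51 for the pair under number 11 and 0.60 for that under number 6. Middle library 2 was highest in all 4 genes, as in most of the module. In the bottom of the pair under number 6, library 1 was highest in Pop_G06G051620, at 0.461 FPKM, and lowest in Pop_A06G089361, at 0.126. Bottom libraries 1, 2 and 3 held 11, 10 and 10 read pairs of Pop_G06G051620 and 3, 4 and 8 of Pop_A06G089361. Such low counts cannot decide an order of libraries. Shared libraries and depth enter such a likeness. Whether the genes of a pair are alike in sequence was not tested. Reads that fit 2 genes of like sequence could be counted for either, and how the authors counted them is not stated.

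The nearest profile of all was that of Pop_A02G023960 to the most abundant member, Pop_G02G080423, at 0.29. Its implied length is 1751 bases against 1768. It met the second step, with a separation of 2.22, and missed the first, with 1.34, so 1 gene of this like pair is in the module and the other is not. Pop_A13G032520 was nearest to Pop_G13G034774, at 0.85, and shared its form, with 0.982, 14.6 and 1.18 FPKM in the middle libraries. There again middle library 2 was within the reach of the top libraries, which held 13.9, 19.1 and 20.5 FPKM. In 9 of the 13 genes the means of the nearest gene also fell at least 1.5-fold at both steps, members included, as a search for like profiles favours.

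**Figure D5:**
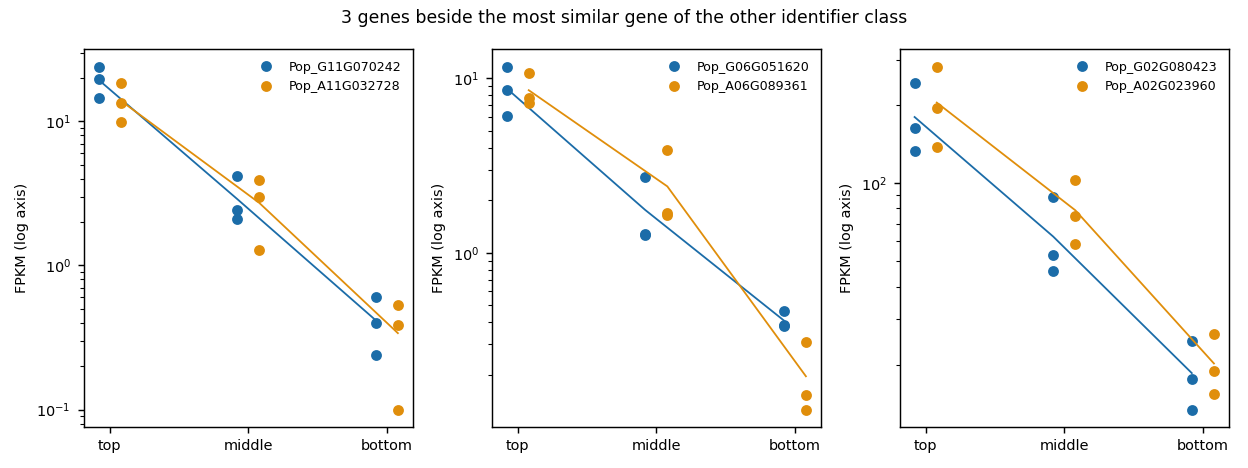
FPKM (log axis) of 3 members beside the most similar gene of the other identifier class under the same number, with 3 libraries as points and lines through the position means. In the first 2 panels both genes are members, and in the third Pop_A02G023960 runs just above Pop_G02G080423, with a position mean of 205 against 180.2 FPKM in the top.

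Rows beside the members in the deposited tables did not, as a rule, fall with them. Of the 52 rows that lie 1 or 2 away from a member, 26 had a top mean of at least 1 FPKM, and in 1 of them the means fell 1.5-fold at both steps. That gene was Pop_A02G012113, the next number after Pop_A02G012112 and, among the genes that met the level criteria, the one closest to the fold limit from outside. Its levels were 21.3, 19.4 and 9.76 FPKM at the top, 2.56, 3.94 and 1.22 mid-stem and 0.816, 0.54 and 0.34 at the bottom. Both genes are short, with 292 and 515 bases, and their libraries ranked alike in middle and bottom. Whether they are parts of 1 transcript was not tested. Near the pair under number 11, the rows 2 away rose down the stem in both classes, with means of 23.2, 67.9 and 81.0 FPKM for Pop_A11G032731 and 27.7, 73.5 and 98.4 for Pop_G11G070244.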

How the data were processed

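Both tables deposited by the authors were used, with 1 column per library and each column matched by the code in the sample title: whole-number read counts and FPKM. Per the submitters' processing notes, reads were trimmed with Trimmomatic 0.36 and aligned with HISAT2. For the counting program, the annotation, the build and any strand setting, nothing is given in the sources used here. All deposited counts were even, so read pairs are given as counts divided by 2. FPKM are the authors' values, and gene length was implied from the ratio of counts to FPKM.

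The module rule was applied to the FPKM as deposited. Counts were tested with edgeR 4.0.16 in R 4.3.3 (filterByExpr with minimum count 10 and minimum total count 15, TMM scaling, 1 coefficient per position, 9 libraries). Alternatives were DESeq2 1.42.0, limma 3.58.1 on log2(FPKM + 1) and log2(FPKM + 0.1), other scalings and filters, a replicate block and leaving out libraries. Deviations from position means of same-numbered libraries correlated at 0.112 to 0.27 between top and middle, where different numbers gave -0.188 to 0.038. Deviations of a position cancel out over its libraries, so the values for same and different numbers depend on each other. The numbers may pair these libraries, but this is not settled, and the labels state no shared plant or day. Between top and bottom the same-numbered values were -0.156 to 0.126, against -0.147 to 0.16 for different numbers. Between middle and bottom they were 0 to 0.055, against -0.056 to 0.017. Pairing was not clear there, and 3 same-numbered pairs cannot exclude it. The letters of the library codes also run with the numbers over all 3 positions. The main fit, which gave the edgeR p-values above unless another fit is named, held no term for the numbers, and the replicate block did. If the numbers do pair libraries, those p-values ignore it. Each standard error is the fold change divided by the root of its F statistic. The procedure was tested on simulated data. Members and tests were chosen with earlier results of these data known. The rule for named genes took those with the highest level, the extreme falls, the extreme balance of steps and those nearest the limit. The other members were added so that each is accounted for, and the 8 other genes called at both steps and the neighbours were named after their values were seen.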

Additional observations from a re-analysis of the deposited data

How the results depend on the processing

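The number of genes in the module depended on the rule: 42 with the lower fold limit tried, 6 with a fold of 2 and 342 on position means. With no minimum in the middle libraries, but some signal in every top library, it was 26. It was 13 with FPKM divided by TMM factors, where 11 genes were shared and Pop_G02G080423 and Pop_G08G022041 were lost. It was 15 to 68 when 1 library was left out. Calls from top to bottom and in the F test covered 13 of 13 genes under all alternatives run. Beside them, 8.3% to 18.9% of all genes were called lower from top to bottom, and 12.4% to 34.3% in the F test. The rule used these values, so nothing is read from the 13 of 13. Calls from top to middle covered 6 to 13 genes when 1 library was left out, while the share of all genes called lower went from 10.4% to between 6.0% and 9.26%. From middle to bottom edgeR called 4 (0.795% of all genes), DESeq2 13 (3.16%), edgeR with no filter on low counts 10 (0.819%), and edgeR with 1 library left out 0 to 9 (0% to 1.05%). The cause was not tested. The median log2 fold change from top to bottom was -3.39 in limma on log2(FPKM + 1), a scale that understates changes of low genes. For single genes, 221 values per contrast over 17 alternatives kept their direction in each of the 3 contrasts between positions. The rule had already separated all libraries of neighbouring positions, so this follows from the choice and shows no robustness. For the second step minus the first 183 of 221 kept their direction, and 0 were called. With the replicate block 13, 5 and 13 genes were called lower at the first step, at the second step and over both, beside 9.25%, 0.778% and 14.1% of all genes. At the second step, pairing by number was not clear. There the block lost the call of Pop_G10G048025 (edgeR adjusted p = 0.0522) and gained those of Pop_G13G034774 (0.0444) and Pop_A11G032728 (0.0189). Over all genes 377 differed between the steps with the block against 708 without. It changed no call of the 13 genes at the first step or from top to bottom.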
